A study of Mus musculus with 12 samples.

Results

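The genes described here encode the hormones and neuropeptides, other than insulin, that islet cells and their relatives can make, together with one carrier protein: Gcg, Sst, Npy, Ppy, Pyy, Cck, Ghrl, Gast, Ucn3 and Ttr. They are 10 of the 24421 gene symbols counted, and they were taken by name. The cells were Min6, a mouse insulinoma line that makes and secretes insulin and is used as a beta-cell model. All 12 libraries came from cells of wild-type genotype that were infected with an adenovirus for 48 h and given 0.3 mM palmitate (PA in the labels), a saturated fatty acid, for 24 h. In the control group (sh-ctrl, 6 libraries, titled GFP) the virus was a control adenovirus; in the knockdown group (sh-Il22ra1, 6 libraries, titled shRNA) it carried a hairpin against Il22ra1, the ligand-binding chain of the interleukin-22 receptor. In sh-Il22ra1 replicates 2 to 6 the number at the end of the gene name in the treatment label runs upward with the replicate; these libraries were grouped by their titles. No group without palmitate or without virus was analysed here, so every difference is one between the viruses in palmitate-treated cells of a tumour line. Nothing in the labels tells whether samples of one group came from separate cultures, and the p-values therefore cover the spread among these samples alone, which may be technical.

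Several of these hormones mark a cell type of the islet. Glucagon (Gcg), from alpha cells, raises blood glucose and its precursor also yields glucagon-like peptide; somatostatin (Sst), from delta cells, holds back the secretion of insulin and glucagon; pancreatic polypeptide (Ppy) and ghrelin (Ghrl) mark the rarer PP and epsilon cells. Neuropeptide Y (Npy) and peptide YY (Pyy) belong with Ppy to one peptide family, cholecystokinin (Cck) and gastrin (Gast) to another, and both families are better known from neurons and the gut. Urocortin 3 (Ucn3) is released by mature beta cells and acts on delta cells, and transthyretin (Ttr), strongly expressed in liver, choroid plexus and alpha cells, carries thyroid hormone and the retinol-binding protein. Insulinoma lines can express several of these genes beside insulin.

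Reads in genes ranged from 13108494 to 15887448 per library. Levels are in CPM (reads per 1e+06 in genes, with library sizes scaled by TMM). Il22ra1 checked the labels: it had 7 to 20 reads in each sh-ctrl library and 1 to 4 in each sh-Il22ra1 library, so the groups did not overlap. On the second principal component (13.7% of the variance) sh-ctrl replicates 1 and 4 stood apart from the other sh-ctrl libraries, and results that change without them are given with both values. Reads without an alignment took 12.8% to 17.3% of the sh-ctrl files and 8.71% to 11.8% of the sh-Il22ra1 files, and their part in the results below was not tested. All 9 beta-cell markers were above 10 CPM, and they summed to 71020 to 107900 CPM in sh-ctrl and 63590 to 72770 CPM in sh-Il22ra1. They did not move alike. Means in sh-ctrl and sh-Il22ra1 were 167 and 87.3 CPM for Slc2a2, a glucose transporter, and 556 and 227 CPM for Mafa. They were 173 and 147 CPM for Nkx6-1, 533 and 503 for Pdx1, 502 and 486 for G6pc2, and 266 and 314 for Slc30a8. Hhex, a regulator that defines delta cells, had no reads in any library. Fibroblast markers summed to 3.09 to 6.57 CPM in sh-ctrl and 1.29 to 2.13 CPM in sh-Il22ra1. Leukocyte markers summed to 18.6 to 27.4 and 5.97 to 9.71 CPM; only Cd68 of these 6 was above 10 CPM, and Ptprc was under 1 CPM. The sums of PP-cell markers (135 to 187 and 194 to 265 CPM, with only Id2 and Meis2 of 5 above 10 CPM) did not overlap between groups either. The part of these markers in the results was not tested.

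The sequences just upstream of the transcription start are shown for the members whose levels the results turn on. They are the 120 bases before the RefSeq start (GRCm38.p6), except for Sst, where 30 bases around the one full cyclic AMP response element are shown. RefSeq's promoter table matched 9 of the 10 members; Ttr had no entry. Capitals mark TGACG, the core of that element (inside TGACGTCA), and TATAA, the core of a TATA box, each searched on both strands.
Gcg, chr2:62483654-62483773, minus strand: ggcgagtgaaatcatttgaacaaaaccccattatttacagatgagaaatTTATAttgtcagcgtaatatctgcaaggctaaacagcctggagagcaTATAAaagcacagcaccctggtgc
Npy, chr6:49822590-49822709, plus strand: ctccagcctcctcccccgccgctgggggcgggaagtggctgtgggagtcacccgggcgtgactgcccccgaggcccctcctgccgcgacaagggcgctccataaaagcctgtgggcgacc
Sst, chr16:23890875-23890904, minus strand: cgcctccttggcTGACGTCAgagagagagt
Cck, chr9:121495695-121495814, minus strand: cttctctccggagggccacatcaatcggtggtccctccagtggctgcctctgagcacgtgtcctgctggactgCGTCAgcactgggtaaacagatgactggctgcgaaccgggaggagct
Ucn3, chr13:3945350-3945469, minus strand: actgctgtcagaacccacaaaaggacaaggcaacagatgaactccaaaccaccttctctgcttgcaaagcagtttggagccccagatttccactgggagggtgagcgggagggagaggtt
The full element TGACGTCA lies 48 to 41 bases before the start of Sst, and 1.24% of the 32851 windows of 120 bases in the table hold it. Cck holds TGACG on the other strand 47 to 43 bases before its start, and 11.7% of windows hold it on either strand, the full elements being among them. Gcg holds a TATAA 24 to 20 bases before its start and another, on the other strand, 71 to 67 bases before it; 11.8% of windows hold at least one. Neither of these letter strings is in the windows of Npy and Ucn3. TAAT, a core bound by homeodomain proteins and also searched on both strands, is in 31.8% of windows, among them those of Gcg (57 to 54 and, on the other strand, 91 to 88 bases before the start) and Sst (95 to 92), but not those of Npy, Cck and Ucn3. A match describes the letters and not binding.

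Among the members the line expressed 4 strongly, 2 weakly and 4 hardly at all. Cck stood first: on the scale of CPM per kb of the reference transcript its sh-ctrl level was 4438 ± 595 (SD, n = 6), which put it at rank 4 of 18828 genes by the mean over all libraries. Npy (850 ± 130) and Ttr (822 ± 108) came next and did not differ from each other beyond their spread, and Gcg (245 ± 16.6) followed, all in CPM per kb in sh-ctrl. Sst (12.1 ± 3.33) and Ucn3 (7.43 ± 1.12 CPM per kb) were lower by more than an order of magnitude. Ghrl, Gast, Pyy and Ppy were at 0.338, 0.239, 0.161 and 0.0657 CPM per kb, with SDs of 0.286, 0.300, 0.122 and 0.109, so their order is not resolved. In sh-Il22ra1 the order among the abundant genes was Cck (4099 ± 211), Ttr (641 ± 59.8), Npy (539 ± 22.1) and Gcg (135 ± 5.23 CPM per kb), and Ucn3 (9.89 ± 1.04) lay above Sst (7.86 ± 1.54). The members together took 0.449% to 0.577% of gene reads in sh-ctrl libraries and 0.414% to 0.468% in sh-Il22ra1 libraries.

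Of the 10 members, 6 had enough reads for the test across genes. In sh-Il22ra1 the genes of glucagon, neuropeptide Y, somatostatin and transthyretin were lower, that of urocortin 3 was higher and that of cholecystokinin did not pass. Tests are by edgeR (quasi-likelihood F), with p-values adjusted by Benjamini-Hochberg over all 13102 genes tested and a threshold of 0.05. So many genes changed in this experiment that 51.9% of all tested genes passed, 26.5% as lower and 25.4% as higher, and the 5 calls among the members have to be read against that share. In 2 members, Gcg and Npy, every sh-Il22ra1 library lay below every sh-ctrl library; among all tested genes the groups did not overlap in 28.1%. Without sh-ctrl replicates 1 and 4 the members again gave 4 lower and 1 higher. With offsets for transcript length and GC content they gave 5 lower and 0 higher, with Cck added and Ucn3 lost.

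**Figure D1:**
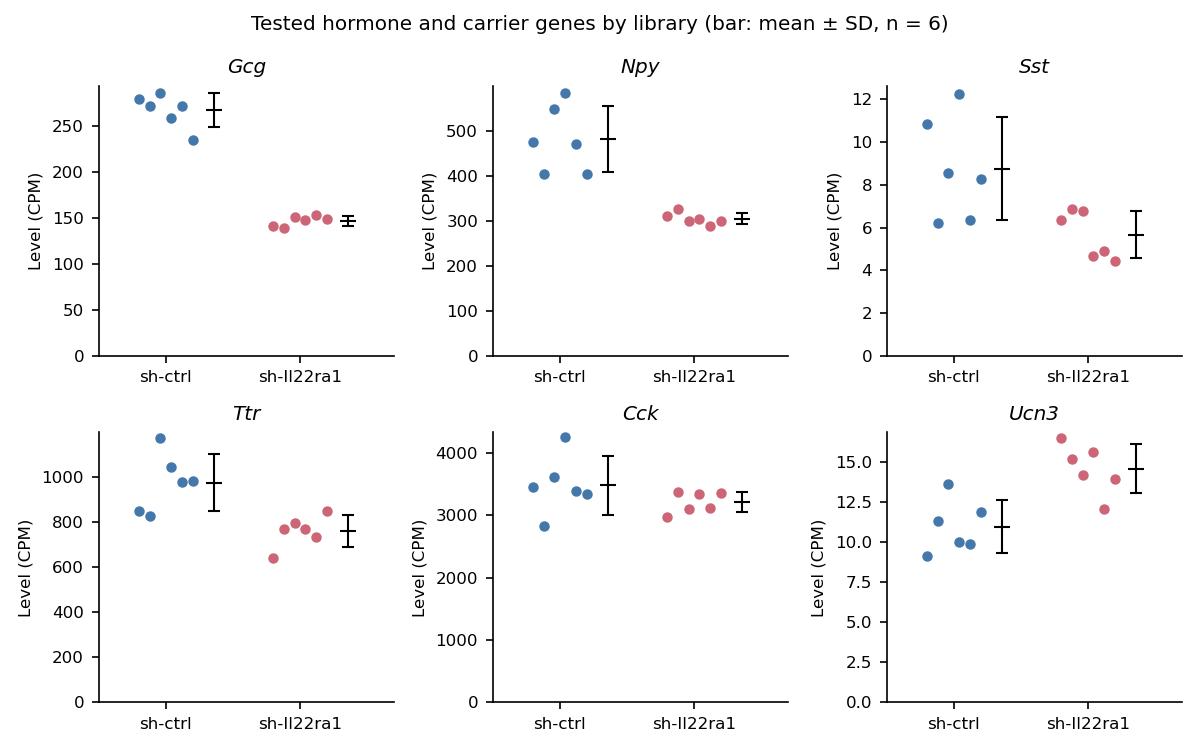
Level in CPM (linear axis from 0) of the 6 tested genes in each library, with 6 sh-ctrl points in blue and 6 sh-Il22ra1 points in red, and the group mean ± SD as a black bar beside them. Gcg and Npy do not overlap between groups, Sst, Ttr and Ucn3 overlap in part, and the Cck points of sh-Il22ra1 all lie within the range of sh-ctrl.

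Among the 6 tested members glucagon had the largest fold change. Gcg lies at chr2:62474530-62483650 on the minus strand (GRCm38), and its reference transcript has 6 exons. Its level ran from 235 CPM over a median of 272 to 286 CPM in sh-ctrl and from 139 over 148 to 153 CPM in sh-Il22ra1. The sh-ctrl libraries sat close together, and the highest sh-Il22ra1 library was far below the lowest of them. The means were 267 ± 18.1 and 147 ± 5.69 CPM (SD, n = 6 each), a 1.82-fold fall, with a log2 fold change of -0.86 (SE 0.0568, edgeR adjusted p = 7.72e-10). Between 3385 and 4246 reads stood behind each sh-ctrl value and between 2043 and 2348 behind each sh-Il22ra1 value. The 9 alpha-cell markers, Gcg and Ttr among them, summed to 1265 to 1634 CPM in sh-ctrl and 870 to 1086 CPM in sh-Il22ra1. Ttr (means of 975 CPM in sh-ctrl and 761 CPM in sh-Il22ra1) and Gcg made up most of these sums. The sums therefore largely repeat the changes of these members and are not a separate result. Of the 9 markers, 4 were above 10 CPM, and Irx2 and Loxl4 were under 1 CPM. The part of these markers in the result was not tested. In bulk RNA, fewer cells of a type and less RNA per cell cannot be told apart.

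Npy, at chr6:49822710-49829507 on the plus strand, fell 1.58-fold. Its level was 404, 473 and 585 CPM (lowest, median and highest) in sh-ctrl and 289, 303 and 326 CPM in sh-Il22ra1. The control libraries spread widely, with replicates 3 and 4 highest, while the sh-Il22ra1 libraries were almost level, and the groups did not overlap. The means were 481 ± 73.9 and 305 ± 12.5 CPM (SD, n = 6 each), and the log2 fold change was -0.66 (SE 0.0823, edgeR adjusted p = 2.74e-06).

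Sst lies at chr16:23889573-23890958 on the minus strand. This GENCODE span reaches past the RefSeq start used above (23890844), so the upstream stretch shown for Sst lies inside it. Sst was a weakly expressed gene here, with 95 to 160 reads per sh-ctrl and 65 to 105 per sh-Il22ra1 library. Its level ran from 6.22 over 8.42 to 12.2 CPM in sh-ctrl and from 4.46 over 5.63 to 6.85 CPM in sh-Il22ra1. The groups overlapped: 3 of the sh-Il22ra1 libraries fell below all control libraries and 4 control libraries lay above all sh-Il22ra1 libraries. Sst fell from 8.75 ± 2.40 to 5.67 ± 1.11 CPM (SD, n = 6 each), a log2 fold change of -0.62 (SE 0.171, edgeR adjusted p = 0.00549). The highest control values, 10.8 and 12.2 CPM, were those of replicates 1 and 4. Without these 2 libraries the log2 fold change was -0.39 (SE 0.147) with an edgeR adjusted p of 0.0239, against 0.000156 to 0.0239 over all alternatives. The 7 delta-cell markers, Sst among them, summed to 129 to 184 CPM in sh-ctrl and 78.3 to 86.0 CPM in sh-Il22ra1, with 3 above 10 CPM (Ptprz1, Casr and Rbp4) and with Hhex at 0; their part in the result was not tested.

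The other 2 genes of rare islet types, Ppy and Ghrl, were close to absent. Ppy, on chromosome 11, had 3 reads in each group, with no read in 4 libraries of each group. Ghrl, on chromosome 6, had 26 reads in sh-ctrl, of which replicate 2 held 10 and replicate 4 held 8, and 14 in sh-Il22ra1, where the highest library had 5. Its ratio of sh-Il22ra1 to sh-ctrl was 0.523 with exact 95% limits of 0.252 and 1.04 (counting error alone), and an exact two-sided permutation test of its CPM gave p = 0.266. Predicted genes on the other strand cover 15.9% of its exon bases, and since the strand setting of the counting is not given, reads there cannot be assigned with certainty. For Ppy the ratio was 0.971 with an interval of 0.130 to 7.25 (exact permutation p = 1.0), so no difference was detectable at this depth.

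Peptide YY, whose gene lies beside Ppy on chromosome 11, was similarly rare despite the abundance of Npy. Pyy had 8 reads in sh-ctrl, at most 3 in a library, and 15 in sh-Il22ra1, at most 6 in a library. The ratio was 1.82 with an interval of 0.724 to 4.96, and the exact permutation test gave p = 0.271. Within the family of neuropeptide Y, then, the line expressed 1 gene of 3 at a level that could be tested.

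**Figure D2:**
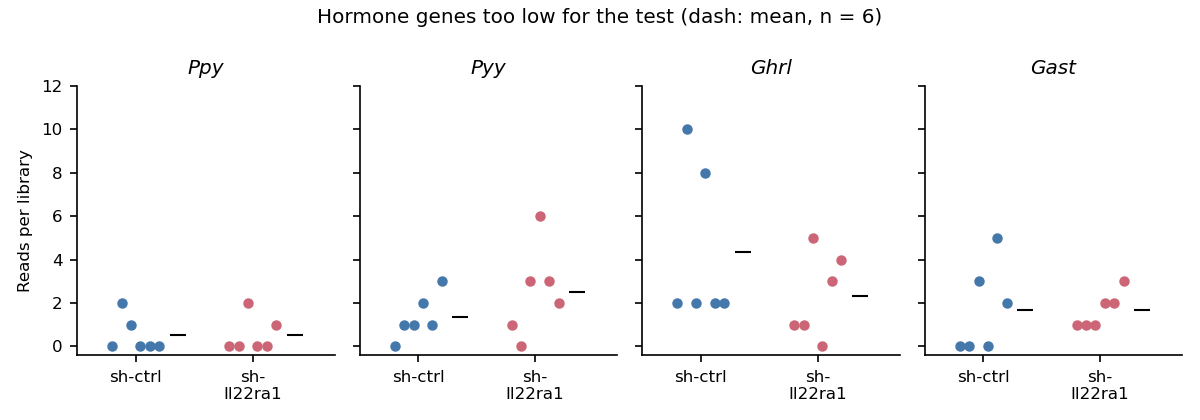
Reads per library (linear axis) of Ppy, Pyy, Ghrl and Gast in 6 sh-ctrl (blue) and 6 sh-Il22ra1 (red) libraries, with the mean as a black dash. No library holds more than 10 reads of any of them, and the groups overlap in all 4 genes.

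Cck, the most abundant member, lies at chr9:121489824-121495694 on the minus strand and held 66.5% of all member reads in sh-ctrl and 72.2% in sh-Il22ra1. Its level ran from 2818 over 3418 to 4252 CPM in sh-ctrl and from 2974 over 3227 to 3368 CPM in sh-Il22ra1. All sh-Il22ra1 libraries lay inside the range of the controls, whose highest value was that of replicate 4 and lowest that of replicate 2. The means were 3475 ± 466 and 3209 ± 165 CPM (SD, n = 6 each), with a log2 fold change of -0.11 (SE 0.0793, edgeR adjusted p = 0.236). With the length and GC offsets the value was -0.18 (SE 0.0451) and passed with an edgeR adjusted p of 0.00201, against 0.00201 to 0.511 over all alternatives. Gastrin, the other peptide of this family, had 10 reads in each group (ratio 0.971, interval 0.363 to 2.60; exact permutation p = 0.968).

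Ucn3, at chr13:3940688-3945349 on the minus strand, was the only member called higher. Its level was 9.16, 10.7 and 13.7 CPM (lowest, median and highest) in sh-ctrl and 12.1, 14.7 and 16.5 CPM in sh-Il22ra1. In 5 of 6 sh-Il22ra1 libraries it exceeded every control, and only replicate 3 of sh-ctrl reached into the range of the knockdown. The means were 11.0 ± 1.65 and 14.6 ± 1.54 CPM (SD, n = 6 each), from 119 to 203 and 186 to 241 reads per library. The log2 fold change was 0.41 (SE 0.106, edgeR adjusted p = 0.00348). With the length and GC offsets it was 0.26 (SE 0.112) and did not pass (edgeR adjusted p = 0.0567, the highest of its alternatives, the lowest being 0.000709).

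Ttr, at chr18:20665280-20674321 on the plus strand, fell 1.28-fold. Its level ran from 825 over 979 to 1171 CPM in sh-ctrl and from 639 over 771 to 851 CPM in sh-Il22ra1. In 5 of 6 sh-Il22ra1 libraries Ttr was below every control, and replicate 6 lay above the lowest control alone. The means were 975 ± 128 and 761 ± 70.9 CPM (SD, n = 6 each), with a log2 fold change of -0.36 (SE 0.0838, edgeR adjusted p = 0.00154). The length and GC offsets moved it to -0.54 (SE 0.0820, edgeR adjusted p = 8.74e-06, with alternatives up to 0.00495).

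The members did not change in one proportion. The ratio of 2 genes within a library does not depend on how libraries are scaled, so the log2 ratio was compared between groups for all 15 pairs of the 6 tested members by two-sided exact permutation over 6 against 6 libraries, with p-values adjusted over the 15 pairs. These ratios come from the same libraries as the tests above and are not independent of them. In 7 pairs the groups did not overlap, and 11 pairs passed after adjustment. The share of pairs of other genes that would pass was not computed. Since 51.9% of all tested genes passed on their own, these counts describe the members and do not set them apart. Relative to Cck, Gcg dropped by 0.76 on the log2 scale, from -3.69 ± 0.222 to -4.45 ± 0.0986 (SD, n = 6 each; exact p = 0.00216, the smallest this design allows, adjusted 0.00463). Npy relative to Cck went from -2.86 ± 0.106 to -3.39 ± 0.0787, with the same exact p. Ucn3 relative to Ttr rose by 0.77, from -6.47 ± 0.190 to -5.70 ± 0.246 (exact p = 0.00216), and relative to Gcg it rose most, as Gcg over Ucn3 went from 4.61 ± 0.237 to 3.33 ± 0.202 (exact p = 0.00216).

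Among Gcg, Npy and Sst the ratios to each other were less clear. Gcg over Npy changed by -0.22 (exact p = 0.0455, adjusted 0.0569), Gcg over Sst by -0.26 (exact p = 0.240, adjusted 0.277) and Sst over Npy by 0.04 (exact p = 0.792, adjusted 0.792), and none of these passed after adjustment. Sst over Cck (-0.50, exact p = 0.0173) and Npy over Ttr (-0.29, exact p = 0.0173) passed after adjustment (0.0236 each), but without sh-ctrl replicates 1 and 4 they were -0.35 (exact p = 0.081) and -0.20 (exact p = 0.0762). Against Ttr, Gcg changed by -0.51 (exact p = 0.00216) and Sst by -0.25 (exact p = 0.271). The 6 members were also set against Ins1 and Ins2, with exact p-values adjusted over these 12 ratios. Npy over Ins1 went from -2.86 ± 0.0669 to -3.15 ± 0.0580 (SD, n = 6 each; exact p = 0.00216, adjusted 0.00518) and over Ins2 it changed by -0.46 (the same exact p). Gcg changed by -0.51 over Ins1 and by -0.67 over Ins2 (exact p = 0.00433, adjusted 0.00742, for each). Ucn3 rose over both (0.77 and 0.61, exact p = 0.00216 for each), and Cck rose over Ins1 (0.25, exact p = 0.00216) but did not pass over Ins2 (0.08, exact p = 0.223). Sst (-0.25 over Ins1, exact p = 0.171, and -0.42 over Ins2, exact p = 0.0368, adjusted 0.0552) did not pass after adjustment. Ttr did not pass over Ins1 (0.00095, exact p = 0.996) or over Ins2 (-0.17, exact p = 0.232).

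**Figure D3:**
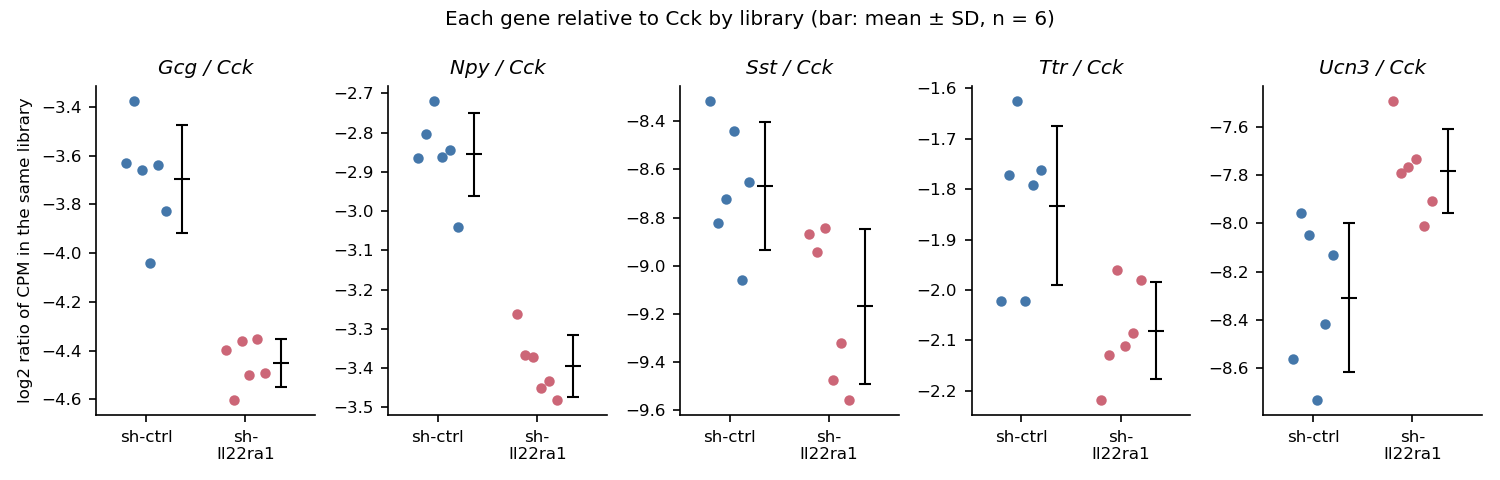
Log2 ratio of the CPM of Gcg, Npy, Sst, Ttr and Ucn3 to that of Cck in the same library (each panel has its own axis, not starting at 0), for 6 sh-ctrl (blue) and 6 sh-Il22ra1 (red) libraries, with the mean ± SD as a black bar. Gcg and Npy relative to Cck separate the groups completely, from -3.69 to -4.45 and from -2.86 to -3.39 on average, while the other 3 panels overlap.

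The receptors through which these peptides act were mostly lower. Of 20 listed genes for receptors of the member hormones and their relatives, 10 could be tested; 7 of these fell, 0 rose and 3 did not pass, with a median log2 fold change of -0.70 beside -0.0043 over all tested genes. The count that fell was 5 without sh-ctrl replicate 3 or sh-Il22ra1 replicate 6, and 9 without the low-count filter. In 5 of the 7 the groups did not overlap. Among all tested genes 26.5% fell, and 14.6% were lower with groups that did not overlap. Both cholecystokinin receptors fell. Cckar, the receptor selective for sulfated cholecystokinin, had 4.04, 4.41 and 5.38 CPM (lowest, median and highest) in sh-ctrl and 1.11, 1.43 and 2.08 CPM in sh-Il22ra1, with a log2 fold change of -1.56 (SE 0.176, edgeR adjusted p = 7.70e-07). Cckbr, which gastrin also binds, went from 15.2 ± 1.53 to 9.30 ± 1.36 CPM (SD, n = 6 each; -0.71, SE 0.105).

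Both receptors of the corticotropin-releasing hormone and urocortin family fell. Crhr2, the receptor that Ucn3 prefers, went from 2.71 ± 0.476 to 1.04 ± 0.309 CPM (SD, n = 6 each), a log2 fold change of -1.37 (SE 0.205, edgeR adjusted p = 2.04e-05). Crhr1, the receptor of corticotropin-releasing hormone, went from 49.8 ± 3.29 to 30.4 ± 1.87 CPM (-0.71, SE 0.0661). Among somatostatin receptors Sstr3 fell from 38.7 ± 3.37 to 23.9 ± 1.33 CPM (-0.70, SE 0.0718) and Sstr2 from 2.03 ± 0.407 to 1.23 ± 0.538 CPM (-0.72, SE 0.255), whereas Sstr5 was at 34.6 ± 5.65 and 35.5 ± 3.40 CPM (SD, n = 6 each; 0.04, SE 0.0961).

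Ghsr, the ghrelin receptor, fell from 1.57 ± 0.469 to 0.966 ± 0.305 CPM (SD, n = 6 each; -0.69, SE 0.250, edgeR adjusted p = 0.0265). The calls on Sstr2 and Ghsr were weak: that on Sstr2 ended without sh-ctrl replicate 3 or 5 or sh-Il22ra1 replicate 5 or 6, and that on Ghsr without sh-ctrl replicate 1 or 3 or sh-Il22ra1 replicate 3 or 6 (highest edgeR adjusted p 0.0555 and 0.0730). For Glp1r, the receptor of glucagon-like peptide, sh-ctrl replicates 1 and 4 had 32.0 and 29.3 CPM and the other controls 46.6 to 59.7 CPM, against 32.5 to 41.4 CPM in sh-Il22ra1. Its log2 fold change was -0.34 (SE 0.141, edgeR adjusted p = 0.0522), and without those 2 controls it was -0.57 with an edgeR adjusted p of 3.13e-07, against up to 0.140 over its alternatives. It also passed without sh-ctrl replicate 1 or 4 alone, without sh-Il22ra1 replicate 5, with the replicate block (-0.30), without the low-count filter, with a minimum mean of 1 CPM and with the length and GC offsets (-0.23). Gipr, the receptor of the incretin GIP, gave -0.13 (SE 0.0905). The glucagon receptor Gcgr had 3 reads in each group, Npy1r had 3 and 1, and Npy2r, Npy5r, Npy6r and Sstr4 had none in any library. Sstr1, also too low for the test, had 33 reads in sh-ctrl and 6 in sh-Il22ra1, and its groups did not overlap. Npy4r (2 and 10 reads) and Crhbp (7 and 20) went the other way, with groups that overlapped.

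**Figure D4:**
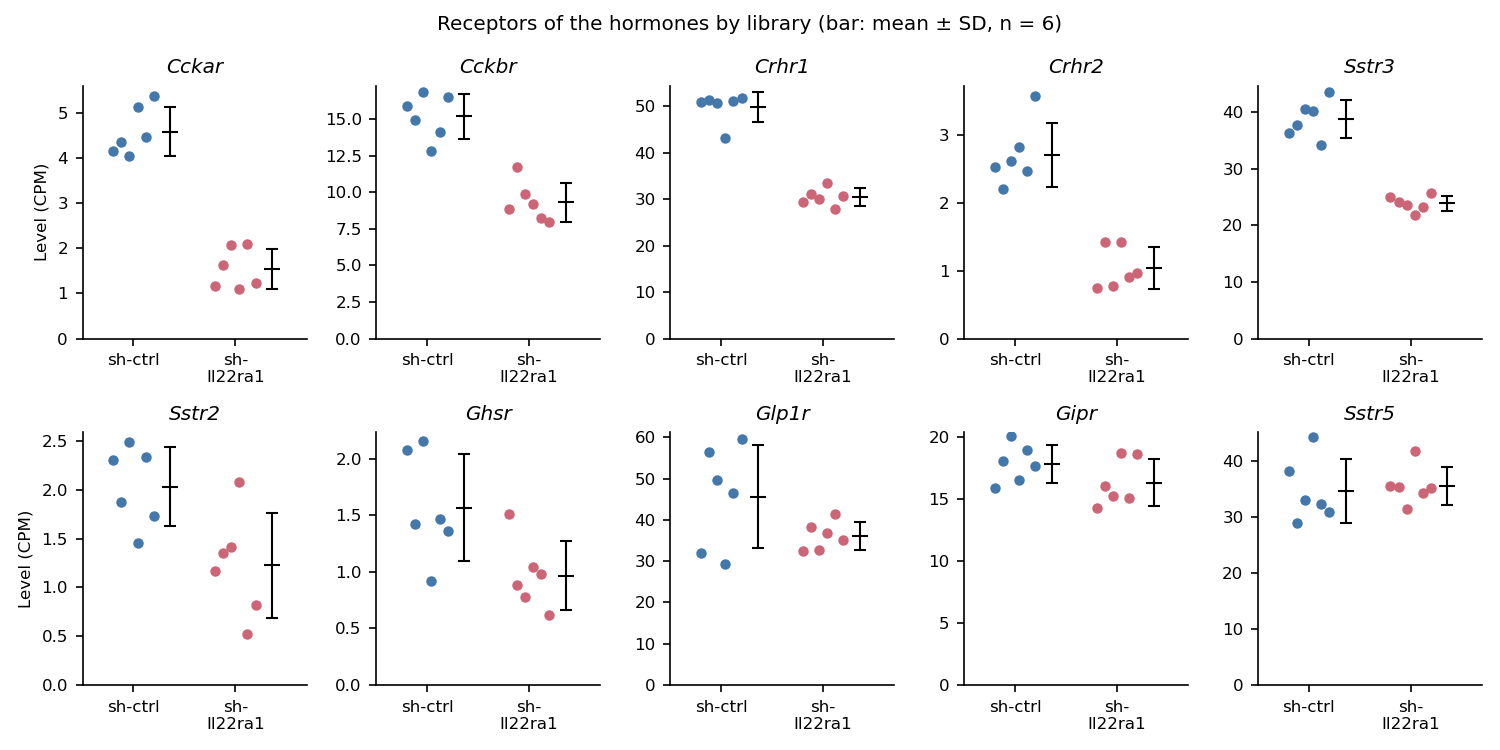
Level in CPM (linear axes from 0, each panel its own) of the 10 tested receptor genes in 6 sh-ctrl (blue) and 6 sh-Il22ra1 (red) libraries, with the mean ± SD as a black bar. Cckar, Cckbr, Crhr1, Crhr2 and Sstr3 do not overlap between groups, and Glp1r shows 2 low controls among 6.

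**Figure D5:**
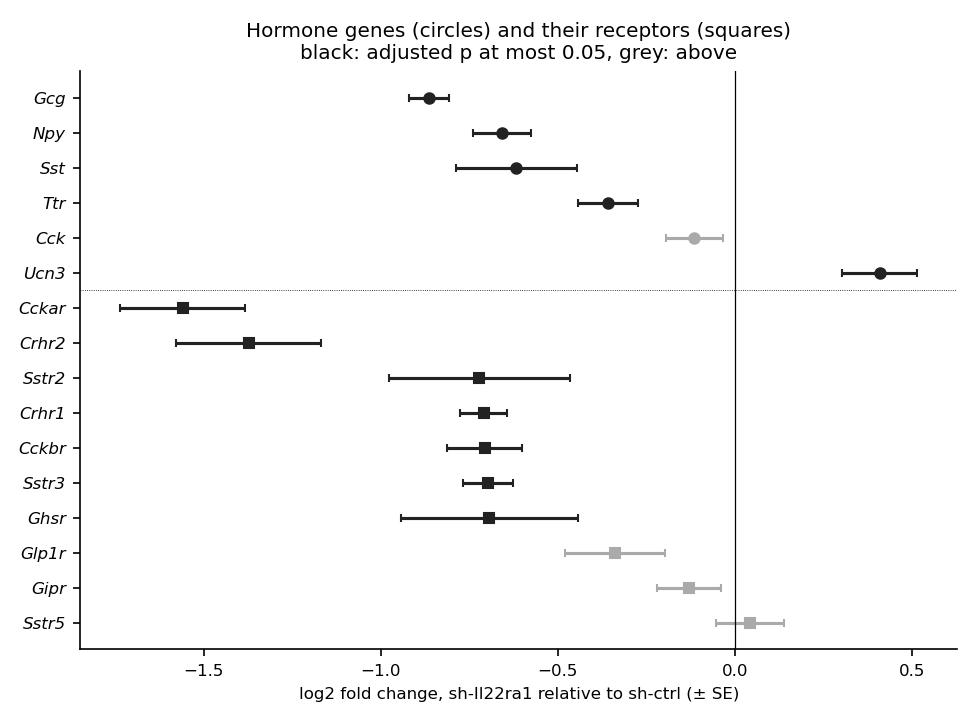
Log2 fold change of sh-Il22ra1 relative to sh-ctrl (horizontal axis, ± SE) for the 6 tested hormone and carrier genes (circles) and 10 receptors (squares), black where the edgeR adjusted p was at most 0.05 and grey where it was not. Ucn3 is the only black point to the right of 0, and Cckar and Crhr2 lie farthest to the left.

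Genes listed for prohormone processing moved in both directions. The list also holds regulators and peptidases that break peptides down, so its counts are not those of activating enzymes alone. Of 16 tested genes in this list, 8 rose, 2 fell and 6 did not pass, at a median log2 fold change of 0.17, where 25.4% of all tested genes rose and 26.5% fell. Pcsk2, the convertase that releases glucagon and somatostatin from their precursors, rose from 1761 ± 134 to 2158 ± 104 CPM (SD, n = 6 each; 0.29, SE 0.0614). Pcsk1, the convertase of proinsulin, gave -0.26 (SE 0.0714), a fall that did not pass with the length and GC offsets (-0.18, edgeR adjusted p = 0.0513, with 6.07e-06 as the lowest of its alternatives). Furin fell from 118 ± 14.4 to 72.0 ± 3.54 CPM (-0.72, SE 0.0735), and the carboxypeptidase gene Cpd rose from 65.6 ± 10.2 to 127 ± 8.19 CPM (SD, n = 6 each; 0.95, SE 0.0870). The carboxypeptidase gene Prcp (0.55), the tyrosine sulfotransferase gene Tpst1 (0.24), the cathepsin gene Ctsl (0.22) and the convertase gene Pcsk7 (0.24) rose; Tpst1 gave 0.15 with the length and GC offsets and Pcsk7 gave 0.16 without sh-ctrl replicates 1 and 4. Cpe (0.03, SE 0.0551), Pam, which amidates Npy and Cck peptides (-0.15, SE 0.0688), Scg5 (-0.13), Pcsk1n (0.03) and Tpst2 (0.12) did not pass. Pam passed without sh-ctrl replicate 1 or 4 or both, without sh-Il22ra1 replicate 3 and with the length and GC offsets (-0.23 and edgeR adjusted p = 0.000661 without both). Scg5 passed without sh-ctrl replicate 2 (-0.17) and with those offsets (-0.30), Pcsk1n without sh-ctrl replicates 1 and 4 (0.19) and Tpst2 without sh-Il22ra1 replicate 1 (0.16). Mboat4, which acylates ghrelin, had 11 reads in sh-ctrl and 9 in sh-Il22ra1.

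Transcription factors of the endocrine lineages were also mixed. Of 18 tested, 5 rose, 4 fell and 9 did not pass, at a median of 0.11, so the share that passed was close to the 51.9% of all tested genes. Pax6, which activates Gcg and other islet hormone genes, fell from 110 ± 3.48 to 86.8 ± 4.63 CPM (SD, n = 6 each; -0.34, SE 0.0531, edgeR adjusted p = 2.98e-05), and Foxa2 fell from 115 ± 7.20 to 88.9 ± 5.55 CPM (-0.37, SE 0.0596). Crem, a gene of cyclic AMP-responsive regulators, fell (-0.59, SE 0.113). Fev (0.86, SE 0.127), Neurod1 (0.37, SE 0.0913), Pax4 (0.36, SE 0.0798) and Insm1 (0.19, SE 0.0692) rose. The call on Insm1 ended without sh-ctrl replicate 4 or 5, without sh-Il22ra1 replicate 3 or 6 and without sh-ctrl replicates 1 and 4 together (0.11 to 0.34 over its alternatives). Foxa1, another forkhead factor (-1.20, SE 0.255), fell. Rfx6 (0.20, SE 0.0810) rose with an edgeR adjusted p of 0.0452, close to the threshold, and its groups overlapped. Both were named after their values were seen. Isl1 (0.06) and Nkx2-2 (0.12) did not pass. Etv1 (-0.25) missed the threshold, but passed with the replicate block (-0.24), without sh-ctrl replicate 1 or 4 or sh-Il22ra1 replicate 3, and without sh-ctrl replicates 1 and 4 together (-0.41). The count higher was 3 without sh-ctrl replicate 4 or 5, sh-Il22ra1 replicate 3 or 6, or sh-ctrl replicates 1 and 4. It was 4 without sh-ctrl replicate 1 or without sh-Il22ra1 replicate 1, 2, 4 or 5. It was also 4 without the low-count filter and with a minimum mean of 1 CPM. The call on Rfx6 ended in all of these settings.

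Of 14 tested genes for the transport and action of retinoids and thyroid hormone, the cargo routes of Ttr, 9 fell, 2 rose and 3 did not pass, at a median of -0.68; 26.5% of all tested genes fell and 25.4% rose. The genes for thyroid hormone were mixed: the receptors Thra (0.29, SE 0.0813) and Thrb (0.60, SE 0.145) rose, the deiodinase Dio2 fell (-0.99, SE 0.317), and Dio1 (0.02) and Crym (0.53, SE 0.262) did not pass; these 5 were named after their values were seen. Crabp1, an intracellular retinoic acid-binding protein, fell from 7.76 ± 1.82 to 2.77 ± 0.900 CPM (-1.48, SE 0.194), and the retinoic acid receptor Rara from 15.6 ± 1.38 to 8.76 ± 0.778 CPM (SD, n = 6 each; -0.83, SE 0.0914). Slc16a10, an amino acid transporter that also moves thyroid hormone, fell (-0.70, SE 0.0730), as did the retinoid X receptor Rxra (-0.44, SE 0.0795; -0.27 with the length and GC offsets). Rbp4, the plasma partner of transthyretin, fell from 13.6 ± 2.74 to 8.53 ± 1.60 CPM (SD, n = 6 each; -0.67, SE 0.139); it was named after its value was seen.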

How the data were processed

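Total RNA of 12 Min6 samples was sequenced as paired ends, per the labels' protocols, and the submitters' processing notes list HISAT2 2.0.5, HTSeq and mm10. Which annotation and strand setting was used is not given in the sources used here. The authors deposited whole-number read counts per gene symbol for each sample. The 5 closing rows of unassigned reads were left out. The members, gene lists and tests were chosen with earlier results of these data known. Groups and replicate numbers came from the sample titles. In R 4.3.3 with edgeR 4.0.16, filterByExpr (minimum count 10, minimum total 15) kept 13102 of 19024 genes with reads, libraries were scaled by TMM and groups compared with glmQLFit and glmQLFTest. SE is the log2 fold change divided by the square root of F. Members under the filter were compared by exact permutation of CPM; intervals are exact conditional Poisson intervals at 95%. Alternatives used limma 3.58.1 (voom), DESeq2 1.42.0, other scaling and filters, library omissions, the replicate number as a block, and offsets from splines (4 degrees of freedom) on transcript length and GC content of GENCODE M21, which matched 23376 symbols directly and 679 by synonym. Positions are from GENCODE M21 and upstream sequences from RefSeq. The closest 2 libraries of a group still differed by more than sampling noise (chi-square over degrees of freedom 3.96). The fit was tested on simulated data in which only a small share of genes changed. A far larger share passed here, so no conclusion about these results is drawn from that test. Named were all members, Il22ra1, tested receptors, the 4 called genes of each list with the smallest p, list members of at least 50 CPM, and the 3 closest companions of each member of at least 10 CPM; predicted genes were not named. Receptors below the filter and Mboat4 were named after their reads were seen.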

Additional observations from a re-analysis of the deposited data

How the results depend on the processing

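Over 22 alternatives Gcg kept its call with log2 fold changes of -1.05 to -0.84, Npy of -0.84 to -0.60, Sst of -0.73 to -0.39 and Ttr of -0.54 to -0.30. With the length and GC offsets the count of members higher was 0 and that of members lower 5. The replicate block changed no call among the members (4 lower, 1 higher; Gcg -0.86, Npy -0.64, Sst -0.60, Ttr -0.35, Ucn3 0.41); among the other named genes it added calls on Etv1 and Glp1r. The labels do not say whether the replicate numbers pair samples. Same-numbered deviations correlated at -0.03 to 0.23, and 1 of 6 numbers matched its own best. Correlations over so few numbers cannot settle whether the samples were paired. Of the 68 named genes tested, 1435 values kept direction and side of the threshold, 20 lost the call, 33 gained it and 8 changed sign. Signs turned among values that did not pass: with length and GC offsets for Cpe (-0.0873) and Isl1 (-0.0356), and when 1 library was left out for Adm2 (-0.0113 to 0.0804), Mvb12a (-0.0248 to 0.124), Pcsk1n (-0.0576 to 0.151), Sstr5 (-0.00859 to 0.111) and the log2 ratio of Sst to Npy (-0.0394 to 0.113). The Ppy CPM difference ran from -0.0191 to 0.0194 and the Gast CPM difference from -0.0208 to 0.0460 when 1 library was left out, and they were -0.0163 and -0.0537 without sh-ctrl replicates 1 and 4; the cause was not tested. Depth limits Ppy, Pyy, Ghrl and Gast, whose intervals all include a ratio of 1.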

Other observations

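Other peptide hormone genes outside the group above moved in both directions. Of 53 listed, 17 could be tested; 4 were higher, 4 lower and 9 did not pass, at a median log2 fold change of 0.03, beside the 51.9% of all tested genes that passed. With the length and GC offsets 7 were lower and 3 higher. Igf2, the gene of insulin-like growth factor II, rose from 1024 ± 97.8 to 1568 ± 57.0 CPM (SD, n = 6 each; 0.61, SE 0.0652), and Pomc, the precursor of corticotropin and melanocortins, from 13.2 ± 4.31 to 23.2 ± 1.18 CPM (0.82, SE 0.148). Fgf21 (1.11, SE 0.106) and Pdyn, the precursor of dynorphins (0.23, SE 0.0773), also rose; the call on Pdyn ended without sh-Il22ra1 replicate 6, without sh-ctrl replicates 1 and 4 together and with the length and GC offsets (0.13 to 0.27 over its alternatives). Iapp (-0.63, SE 0.0787) and Ins1 (-0.36, SE 0.0850) fell, and so did Vgf (-0.21, SE 0.0565), whose call ended with the length and GC offsets (-0.05). Ins1 gave -0.55 with those offsets. Nucb2, the precursor of nesfatin, fell too (-0.42, SE 0.0894) and was named after its value was seen. Ins2 (-0.21, SE 0.112) did not pass, but did without sh-ctrl replicate 2 (-0.28) and with the offsets (-0.35). Sct, the gene of secretin (-0.22, SE 0.0947), did not pass, but did with a minimum mean of 1 CPM (-0.23), with the offsets (-0.31) and without sh-ctrl replicate 2 or 6 or sh-Il22ra1 replicate 2 or 6. Adm2 (0.03) did not pass. Sct reached 614 ± 84.4 CPM in sh-ctrl and 528 ± 72.9 CPM in sh-Il22ra1 (SD, n = 6 each). Over all libraries Sct had a mean of 1126 CPM per kb.

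The spread between libraries was larger in sh-ctrl for each of the 6 tested members. Whether this was particular to them was not tested. On the second principal component of all tested genes, sh-ctrl libraries ran from -17.7 to 31.9 and sh-Il22ra1 libraries from -9.3 to 6.27. The share of all genes with a larger spread in sh-ctrl was not counted. The coefficient of variation of Npy was 15.3% in sh-ctrl and 4.10% in sh-Il22ra1, that of Cck 13.4% and 5.15%, and that of Gcg 6.78% and 3.88%. For Ttr it was 13.1% and 9.32%, for Ucn3 15.0% and 10.5% and for Sst 27.5% and 19.5%. The difference in spread was not tested.

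After the group means were taken off, the genes whose levels followed those of a member most closely over the 12 libraries were found among 9436 tested genes of at least 10 CPM, by Pearson's r of log2 CPM, given as a description. For Cck they were Fdxr (r = 0.970), Mvb12a (0.969) and Spag7 (0.967), for Npy Rogdi (0.943), Atp6v0d1 (0.931) and Eif3f (0.927), and for Ttr Ptov1 (0.929), Exoc7 (0.921) and Adck5 (0.917). For Gcg they were Laptm4a (0.929), Pigp (0.925) and Mettl21a (0.864, with 0.978 within sh-ctrl and 0.297 within sh-Il22ra1), and for Ucn3 Trpc4ap (0.863), Pgap3 (0.846) and Poldip3 (0.838). The companions of a member did not all share its change between groups: Rogdi fell with Npy (log2 fold change -0.69, SE 0.0706), whereas Laptm4a rose (0.33, SE 0.0564; 0.19 with the length and GC offsets) while Gcg fell.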
